A study of Capsicum annuum and Solanum lycopersicum with 125 samples.

Results

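The genes described here are tomato transcription factors of the AP2/ERF (ethylene response factor) family. They were taken from a list of 43 gene IDs, from which ERF114 was left out, and chosen for family membership alone, not for any measured value. Of the 43 listed genes, 41 were in the tomato count table of 34688 genes. The other 2, Solyc01g065980 and Solyc01g090340, were not analysed here. The annotation given with the data pairs no gene symbol with these IDs, so each gene is called by its ID, whose first digits give the chromosome and whose last digits give its order along it.

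ERF proteins bind DNA through an AP2 domain, and many recognise the GCC box or the related dehydration-responsive element in front of stress and defence genes. Some members activate their targets and others repress them, often through a short EAR motif. Ethylene, jasmonate, wounding and pathogens are known to induce members of the family, which in tomato takes part in defence, fruit ripening and the control of steroidal glycoalkaloid synthesis.

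The libraries came from stem tissue of tomato (Solanum lycopersicum, variety M82) grafted as 14-day-old seedlings, healed in the dark for 3 days and collected 7, 14 or 21 days after grafting (DAG). Ungrafted stems of like age served as the control, and by the study's methods these plants also went through the recovery given to grafts. The plastic domes covering the plants were vented at 7 DAG and taken off at 14 DAG. Self-grafts joined a tomato scion, the upper part, to a tomato stock, the rooted part below. Heterografts joined tomato to pepper (Capsicum annuum, variety California Wonder), so the heterografted tomato scion grew on a pepper stock and the heterografted tomato stock carried a pepper scion, and the study treats these combinations as incompatible. All tomato plants were of 1 variety, and scion and stock pieces were taken from beside the junction, so a whole stem piece with all its cell types was measured. In such bulk tissue, fewer cells of a type and less RNA per cell cannot be told apart.

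The 61 tomato libraries were 3′ tag libraries, in which reads come from the ends of polyadenylated transcripts, in 15 groups of 3 to 5 libraries. Leaving aside the heterografted stocks of 14 and 21 DAG, 55 libraries held between 952084 and 3136541 counts. The 3 heterografted stock libraries of 14 DAG held 900, 912 and 1509 counts, with at most 1 count of any ERF gene in a library, and were not tested. The 3 heterografted stock libraries of 21 DAG held between 32731 and 267066 counts. Levels below are counts per 1000000 of the library's total (CPM), listed in order of replicate number. They cannot be compared between genes, because no transcript lengths were used. Between libraries they are given without the TMM factors that the test used. Those factors were 1.40 to 4.71 in heterografted stocks of 21 DAG and 0.83 to 0.87 in self-grafted stocks of that day. CPM of these stocks are therefore not on 1 scale. Log2 fold changes come from edgeR's quasi-likelihood test with TMM scaling, ± 1 standard error (SE), with Benjamini-Hochberg adjustment over the 12176 genes tested. A gene was called where its adjusted p was under 0.05 and its log2 fold change was over 1.5 in either direction.

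Of the 41 genes in the table, 17 passed the filter on low counts and 24 did not. By ID, 21 of the 41 lay in runs of neighbouring loci, of which 8 passed: 3 on chromosome 3 (Solyc03g093540, Solyc03g093550 and Solyc03g093560), 2 on chromosome 5 (Solyc05g052030 and Solyc05g052040) and 3 on chromosome 8 (Solyc08g007820, Solyc08g078180 and Solyc08g078190). Neighbouring family members can be near copies of each other. How reads shared between such copies were counted was not stated for these values, so the split of counts within a run is uncertain.

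More of the 17 ERF genes tested, which do not include ERF114, were called between the heterografted and the self-grafted scion at each later day. All of these calls were lower in the heterograft. At 7 DAG 0 of the 17 ERF genes were called in the heterografted against the self-grafted scion, where 1.07% of all genes tested were called higher and 1.30% lower. In that comparison 3 of the 17 had an unadjusted p under 0.05 in edgeR, and the DESeq2 Wald test also called 0. By 14 DAG 4 were called lower and 0 higher, beside 3.44% and 2.19% of all genes. By 21 DAG 8 of the 17 were called lower and 0 higher, beside 4.60% of all genes called lower and 3.53% called higher. The median log2 fold change of the 17 at 21 DAG was -1.69, where that of all genes tested was 0.03, and 13 of the 17 values were below 0.

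**Figure D1:**
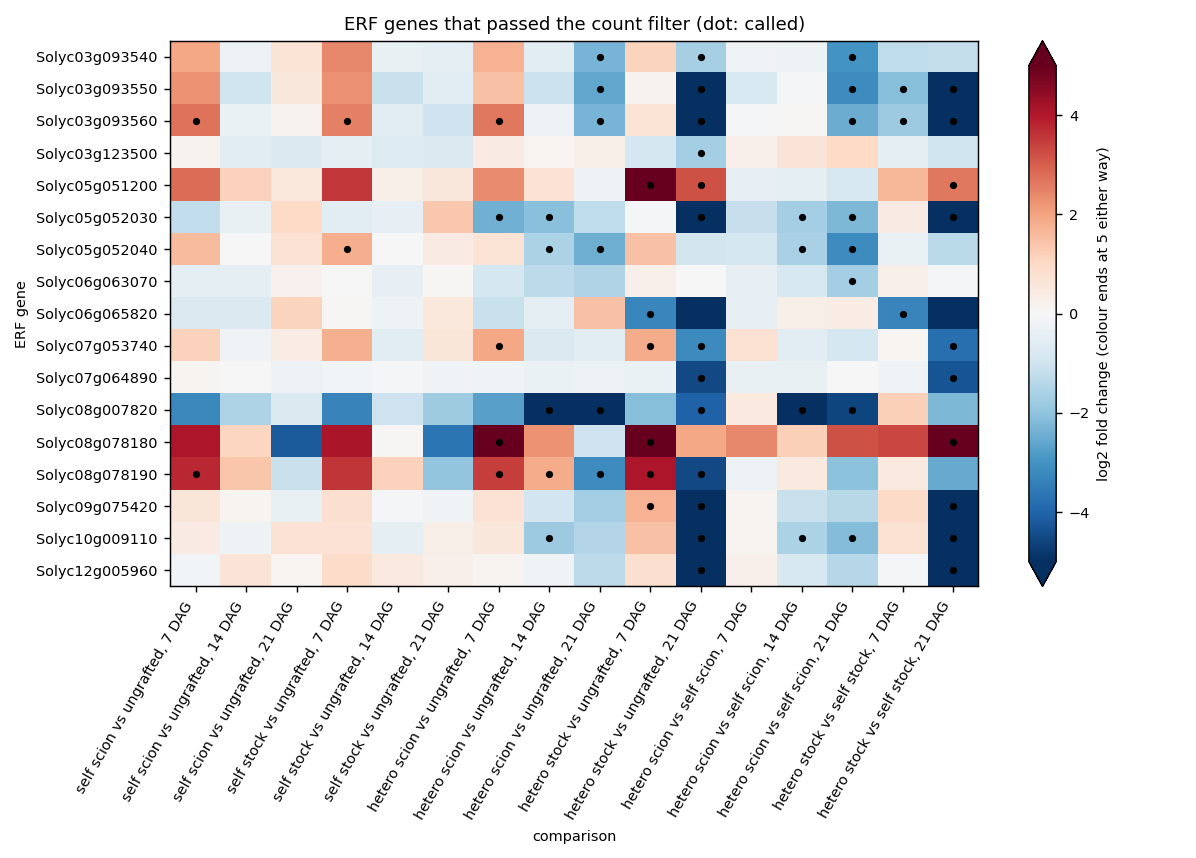
Log2 fold changes (colour, ends at -5 and 5) of the 17 ERF genes that passed the filter (rows) in 16 comparisons (columns); a dot marks a call at adjusted p under 0.05 and a log2 fold change over 1.5. In the heterografted against the self-grafted scion, 0 genes carry a dot at 7 DAG, 4 at 14 DAG and 8 at 21 DAG, all of them on the lower side.

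All 3 neighbours on chromosome 3 were called lower in the heterografted than in the self-grafted scion at 21 DAG and not at 7 or 14 DAG, and Solyc03g093560 had been higher in both scions than in ungrafted stem at 7 DAG. Solyc03g093560 stood at 10.7, 18.8, 30.0 and 6.81 CPM in the ungrafted stems of 7 DAG, at 75.7, 100, 59.9 and 233 CPM in self-grafted scions and at 58.5, 105, 194, 117 and 64.2 CPM in heterografted scions. Every scion library lay above every ungrafted library, and both scion groups covered the same range. Against ungrafted stem the log2 fold change was 2.73 ± 0.55 in the self-grafted scion (adjusted p = 0.01114) and 2.62 ± 0.54 in its heterografted counterpart (adjusted p = 0.002254). At 14 DAG Solyc03g093560 was at 34.2 to 60.3 CPM in self-grafted scions and 32.9 to 56.1 CPM in heterografted scions, which overlapped fully (log2 fold change 0.06 ± 0.42).

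At 21 DAG the same gene, Solyc03g093560, was at 94.6, 74.4, 289 and 192 CPM in self-grafted scions and at 30.5, 41.5, 42.8 and 12.1 CPM in heterografted scions. The groups did not overlap, and the heterografted libraries also lay below the ungrafted stems, at 140, 168, 90.3 and 154 CPM. The log2 fold change between the scions was -2.50 ± 0.54 (adjusted p = 0.004508). Its neighbour Solyc03g093550 was at 44.5, 32.1, 157 and 94.4 CPM in self-grafted scions and 13.3, 8.30, 14.1 and 5.59 CPM in heterografted scions of that day. Again every heterografted library was the lower, with a log2 fold change of -3.14 ± 0.55 (adjusted p = 0.00154). For Solyc03g093540 the self-grafted scions gave 23.4, 27.0, 88.7 and 64.6 CPM and the heterografted scions 8.61, 8.30, 8.82 and 2.80 CPM. These did not overlap either, and the log2 fold change was -2.99 ± 0.54 (adjusted p = 0.001403). Within the self-grafted scions the same 2 libraries, replicates 4 and 5, were the highest for all 3 neighbours, and in the heterografted scions replicate 4 was the lowest for all 3. The 3 calls at 21 DAG were kept without any 1 library.

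**Figure D2:**
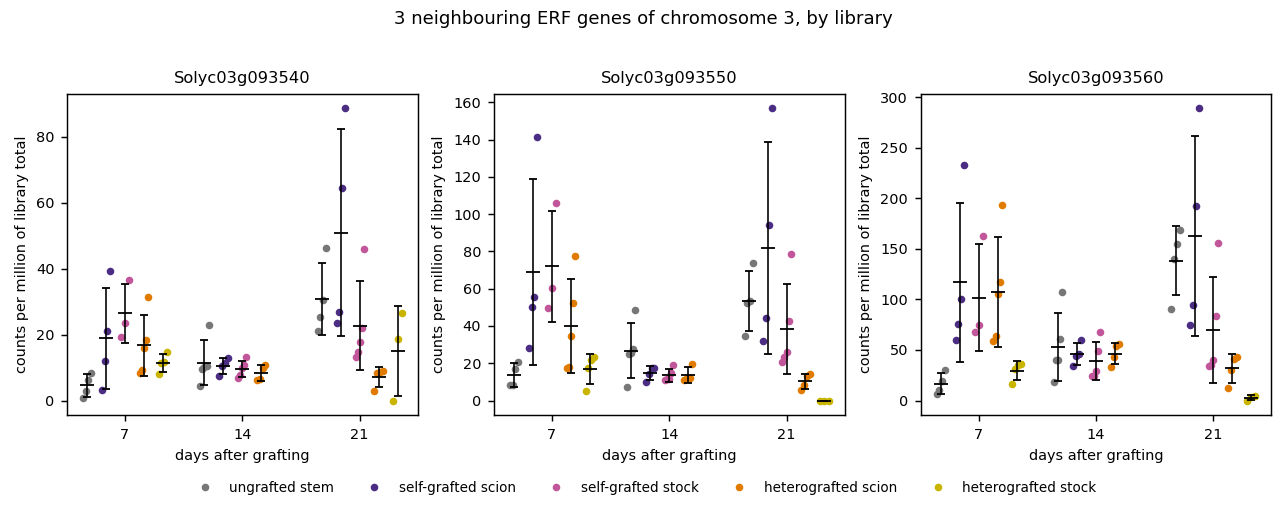
CPM (vertical axis) of Solyc03g093540, Solyc03g093550 and Solyc03g093560 in each library at 7, 14 and 21 DAG; points are libraries and bars are mean ± SD, with the heterografted stocks of 14 DAG not drawn. At 7 DAG both scion groups stand above the ungrafted stems for Solyc03g093560, while at 21 DAG the heterografted scions, at 12.1 to 42.8 CPM, lie below all self-grafted scions, at 74.4 to 289 CPM.

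The pair on chromosome 5 and Solyc10g009110 on chromosome 10 were lower in the heterografted scion already at 14 DAG. Solyc05g052030 was at 59.2, 36.2, 39.9 and 38.9 CPM in self-grafted scions of 14 DAG and at 12.6, 11.2, 20.7 and 6.94 CPM in heterografted scions. No library overlapped, and the log2 fold change was -1.71 ± 0.37 (adjusted p = 0.003019). At 21 DAG the levels were 147, 166, 87.6 and 129 CPM against 36.8, 22.7, 18.5 and 43.3 CPM, again without overlap. That difference was -2.26 ± 0.36 on the log2 scale (adjusted p = 0.0005221). Already at 7 DAG the heterografted scions, at 2.07, 5.89, 4.14, 2.53 and 2.49 CPM, lay below the self-grafted ones, at 8.17, 6.86, 10.5 and 6.0 CPM, but the log2 fold change of -1.15 ± 0.41 did not pass (adjusted p = 0.1152).

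The neighbour Solyc05g052040 was at 40.0, 24.1, 37.1 and 26.7 CPM in self-grafted scions of 14 DAG and at 6.66, 8.29, 10.9 and 14.5 CPM in heterografted scions. All 4 heterografted libraries were the lower, with a log2 fold change of -1.62 ± 0.32 (adjusted p = 0.00143). At 21 DAG the self-grafted scions held 126, 66.7, 130 and 135 CPM and the heterografted scions 17.2, 12.2, 13.7 and 13.5 CPM. This was the ERF gene with the lowest adjusted p of the 17 in that comparison (log2 fold change -3.15 ± 0.44, adjusted p = 0.0002173). Solyc05g052040 stayed between 6.66 and 22.1 CPM in the heterografted scions of all 3 days, while ungrafted stems went from 4.26 to 13.5 CPM at 7 DAG to 41.8 to 92.6 CPM at 21 DAG.

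Solyc10g009110 covered the same range in both scion groups at 7 DAG, 37.8 to 76.6 CPM in heterografted and 35.7 to 75.7 CPM in self-grafted scions. At 14 DAG it was at 117, 43.8, 53.1 and 40.8 CPM in self-grafted scions and at 15.9, 12.8, 30.8 and 22.8 CPM in heterografted scions. The groups no longer overlapped, and the log2 fold change was -1.59 ± 0.43 (adjusted p = 0.01102). At 21 DAG the self-grafted scions held 144, 69.3, 250 and 187 CPM and the heterografted scions 46.2, 34.3, 31.3 and 48.0 CPM (log2 fold change -2.16 ± 0.43, adjusted p = 0.002774).

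The calls between the scions at 14 DAG depended on single libraries, whereas those of 21 DAG were kept without any 1 library. At 14 DAG the log2 fold changes of Solyc05g052030, Solyc05g052040 and Solyc10g009110 lay close to the threshold. That of Solyc06g063070 at 21 DAG was as close, at -1.69, and -1.55 at its weakest without 1 library. The count of 4 at 14 DAG fell to 1 without self-grafted scion replicate 1 or without heterografted scion replicate 1, and to 2 without heterografted scion replicate 2 or 4. Scaled by DESeq2's size factors, 1 of the 17 was called at that day, at log2 fold changes of -1.27 for Solyc05g052040, -1.34 for Solyc05g052030 and -1.30 for Solyc10g009110.

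**Figure D3:**
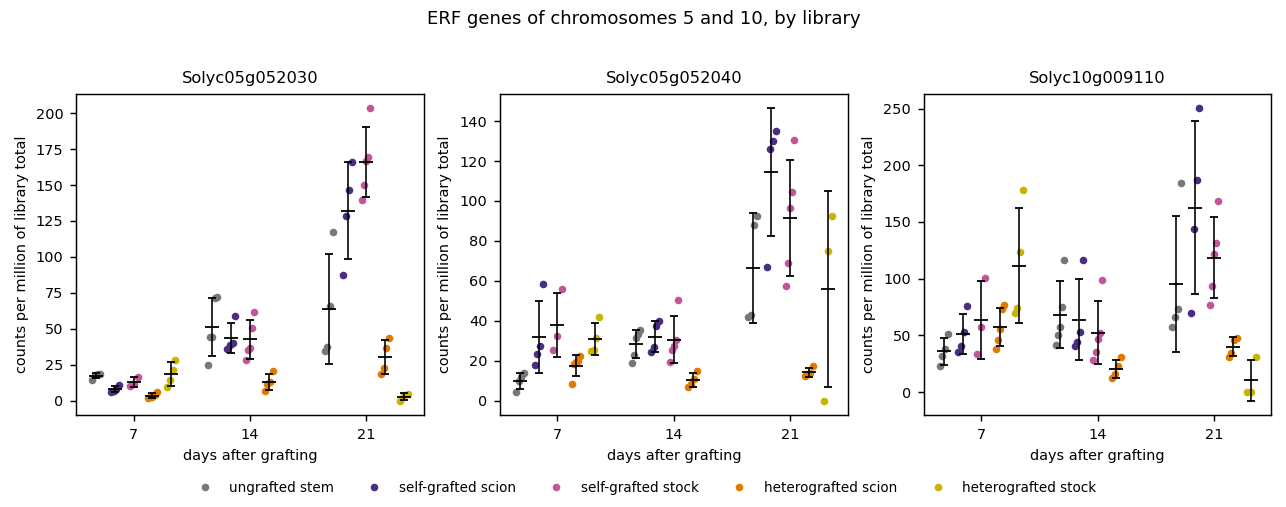
CPM (vertical axis) of Solyc05g052030, Solyc05g052040 and Solyc10g009110 in each library at 7, 14 and 21 DAG; points are libraries and bars are mean ± SD, with the heterografted stocks of 14 DAG not drawn. At 14 and 21 DAG every heterografted scion lies below every self-grafted scion for all 3 genes, and for Solyc05g052040 the heterografted scions keep to 6.66 to 22.1 CPM over the 3 days.

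Solyc08g007820 on chromosome 8 was nearly unread in heterografted scions of 14 and 21 DAG. At 7 DAG the scions were not called apart for it (log2 fold change 0.48 ± 1.40). Its mean count over all tomato libraries was 26.9, with 765 counts in ungrafted stems and 200 in self-grafted scions of 14 DAG. Counts in these groups, where it was higher, helped it pass the filter on a mean count of 10. The counts of lower genes in scions of 14 and 21 DAG include it. At 14 DAG its levels were 78.3, 11.0, 4.79 and 16.0 CPM in self-grafted scions and 120, 18.4, 144, 27.2 and 56.1 CPM in ungrafted stems, but 0, 0.319, 0.405 and 0 CPM in heterografted scions. No heterografted scion reached the lowest library of the other 2 groups. With 2 counts over the 4 heterografted scions against 200 over the self-grafted ones, the pooled ratio, of counts summed over a group per summed library total, was 140-fold lower, with an exact 95% counting interval of 38.2 to 1161, which covers counting error only. The fitted log2 fold change was -6.78 ± 2.04 (adjusted p = 0.02324), and it lost its call without self-grafted scion replicate 1 (log2 fold change -5.38, adjusted p = 0.09378) or without any 1 of the 4 heterografted scions (log2 fold changes between -7.22 and -6.41, adjusted p between 0.05136 and 0.06194). Over all libraries left out in turn it lay between -7.22 and -5.38. At 21 DAG the gene was at 6.27, 7.70, 14.1 and 12.6 CPM in self-grafted scions and 0, 0, 0.441 and 0.932 CPM in heterografted scions, again without overlap. There the pooled ratio was 25.7-fold lower (exact 95% counting interval 8.46 to 128) and the log2 fold change -4.58 ± 1.08 (adjusted p = 0.008337), kept without any 1 library. Self-grafted stocks of 14 DAG spread from 0 to 157 CPM for Solyc08g007820.

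Solyc06g063070 had counts in all 58 libraries outside the heterografted stocks of 14 DAG. It was at 974, 762, 605 and 583 CPM in self-grafted scions of 21 DAG and 245, 194, 217 and 335 CPM in heterografted scions. The groups did not overlap, with a log2 fold change of -1.69 ± 0.42 (adjusted p = 0.01161). Across days the heterografted scions averaged 251 ± 36.5 (SD, n = 5), 274 ± 22 (SD, n = 4) and 248 ± 62.1 (SD, n = 4) CPM at 7, 14 and 21 DAG, while the self-grafted scions averaged 324 ± 93.2, 499 ± 117 and 731 ± 180 CPM (SD, n = 4 each). At 14 DAG its adjusted p of 0.003475 passed but the log2 fold change of -0.82 ± 0.18 was under the fold threshold.

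The remaining 9 genes that passed the filter were not called between the scions at any day. Of these, Solyc03g123500 went the other way: it averaged 295 ± 19.6 CPM (SD, n = 4) in heterografted and 133 ± 27.1 CPM (SD, n = 4) in self-grafted scions of 21 DAG, at a log2 fold change of 1.01 ± 0.29 (adjusted p = 0.02583) that was under the fold threshold. Solyc12g005960 averaged 7.47 ± 2.43 against 18.0 ± 1.47 CPM (SD, n = 4 each) at that day, with a log2 fold change of -1.41 ± 0.42 (adjusted p = 0.0326), also under it. Solyc07g064890 averaged 60.7 ± 8.28 CPM in heterografted and 54.8 ± 15.3 CPM in self-grafted scions (SD, n = 4 each), with overlapping libraries and a log2 fold change of 0.01 ± 0.30. The other 6 had log2 fold changes between -2.04 and 3.18 at 21 DAG, with adjusted p of 0.1023 or more.

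Whether the scion difference itself changed between 7 and 21 DAG was tested as an interaction across both days. For 7 of the 17 genes the difference was lower at 21 than at 7 DAG at an adjusted p under 0.05, and for 0 it was higher, beside 5.61% and 7.41% of all genes tested. The 3 neighbours on chromosome 3 changed by -2.77 ± 0.73 (Solyc03g093540, adjusted p = 0.008112), -2.33 ± 0.72 (Solyc03g093550, adjusted p = 0.02531) and -2.35 ± 0.71 (Solyc03g093560, adjusted p = 0.02144) on the log2 scale. Solyc10g009110 changed by -2.29 ± 0.59 (adjusted p = 0.006488) and Solyc05g052040 by -2.22 ± 0.48 (adjusted p = 0.001357). The last 2 were Solyc12g005960, at -1.63 ± 0.53 (adjusted p = 0.03181), and Solyc06g063070, at -1.26 ± 0.27 (adjusted p = 0.001241). For Solyc05g052030, whose libraries were already apart at 7 DAG, the change of -1.13 ± 0.55 did not pass (adjusted p = 0.1917).

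In the stock at 7 DAG, where the tomato piece carried a pepper scion, 3 of the 17 genes were called lower than in the self-grafted stock and 0 higher, beside 7.99% and 2.48% of all genes. Solyc06g065820 was at 32.0, 38.0 and 26.0 CPM in self-grafted stocks and at 0, 6.78, 5.77 and 0 CPM in heterografted stocks. The ranges were far apart, with a log2 fold change of -3.32 ± 0.78 (adjusted p = 0.005207), and the heterografted stock was also called lower than ungrafted stem (log2 fold change -3.28 ± 0.76, adjusted p = 0.00246). In scions of 7 DAG the same gene was at 7.45 to 19.0 CPM in heterografts and 8.4 to 24.0 CPM in self-grafts, which overlapped. Fitted on only the groups compared, Solyc06g065820 in the stock kept its log2 fold change (-3.33) but not its call (adjusted p = 0.09048).

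The other 2 lower genes of the stock belonged to the block on chromosome 3. Solyc03g093550 was at 60.5, 49.4 and 106 CPM in self-grafted and 5.10, 17.4, 23.1 and 22 CPM in heterografted stocks, a log2 fold change of -2.12 ± 0.62 (adjusted p = 0.01994). Solyc03g093560 was at 67.5, 74.7 and 162 CPM in self-grafted and 16.0, 36.0, 35.2 and 31.2 CPM in heterografted stocks, a log2 fold change of -1.82 ± 0.55 (adjusted p = 0.02421). Neither gene overlapped between the stocks, and the heterografted stocks lay within or near the range of ungrafted stems, 8.47 to 20.9 CPM for Solyc03g093550 and 6.81 to 30.0 CPM for Solyc03g093560. Both calls were lost without self-grafted stock replicate 5 (log2 fold change -1.73, adjusted p = 0.09624 for Solyc03g093550 and -1.31, adjusted p = 0.1541 for Solyc03g093560), and that of Solyc03g093560 also without heterografted stock replicate 1 (-1.60, adjusted p = 0.0647). Whether the heterograft difference was unlike in scion and stock at 7 DAG was tested as an interaction, and 0 of the 17 genes passed in edgeR, where 8.15% of all genes were higher and 4.13% lower. At an unadjusted p under 0.05 there were 5, and leaving out 1 library at a time gave 0 to 1. The interaction took self-grafted scions and stocks as independent. Whether same-numbered pieces of them came from 1 graft was not tested.

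Measured against ungrafted stem at 7 DAG, some ERF genes were called higher in every grafted tissue. In the self-grafted scion 2 of the 17 were called higher and 0 lower, beside 1.67% and 0.263% of all genes. The self-grafted stock gave 2 higher and 0 lower, beside 1.13% and 0.0575%. The heterografted scion had 4 higher and 1 lower, beside 5.08% and 3.08%, and the heterografted stock 5 higher and 1 lower, beside 9.46% and 10%. Both counts of higher genes include Solyc08g078180, which passed the filter on low counts largely through these heterografted groups. Its part in them is therefore not comparable with the shares of all genes. The 4 comparisons share the same 4 ungrafted libraries. The calls of the self-grafts were the least firm: fitted on only the groups compared, 0 of the 17 were called in either self-grafted tissue, and without 1 library at a time the counts were 1 to 4 for self-grafted scions and 0 to 2 for self-grafted stocks.

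Of the chromosome 3 neighbours Solyc03g093560 was called, the neighbouring pair on chromosome 8 was called in the heterografts, and the others were genes of chromosomes 5, 6, 7 and 9. Solyc08g078190 was at 0, 0.649, 0.909 and 1.70 CPM in ungrafted stems of 7 DAG, at 11.4, 5.14, 2.10 and 29.5 CPM in self-grafted scions and at 5.17, 10.3, 18.6, 10.1 and 3.98 CPM in heterografted scions. Every scion was above every ungrafted stem, with log2 fold changes of 3.78 ± 0.99 (adjusted p = 0.04428) and 3.47 ± 0.97 (adjusted p = 0.01812). In heterografted stocks it was at 3.64, 7.63, 22.5 and 26.0 CPM (log2 fold change 4.03 ± 1.0, adjusted p = 0.004006), and in self-grafted stocks at 6.50, 7.51 and 17.3 CPM (3.56 ± 1.02, adjusted p = 0.07874, not called).

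Its neighbour Solyc08g078180 had 2 counts over the 4 ungrafted stems of 7 DAG. The heterografted scions of that day held 431 counts of it and the heterografted stocks 630. Its mean count over all tomato libraries was 21.4. Solyc08g078180 therefore passed the filter on a mean count of 10 largely through the heterografted groups in which it was called higher. It was at 10.3, 28.3, 109, 29.7 and 11.4 CPM in heterografted scions and at 0.729, 35.6, 29.4 and 252 CPM in heterografted stocks. All but the first stock library were more than 10 times any ungrafted stem, whose highest was 0.851 CPM. The pooled ratio to ungrafted stem was 113-fold higher in the heterografted scion (exact 95% counting interval 31.1 to 936) and 237-fold higher in the heterografted stock (65.4 to 1963), and both were called (adjusted p = 0.01287 and 0.002478). In self-grafted scions it was at 4.90, 7.43, 2.10 and 14.3 CPM and in self-grafted stocks at 2.0, 0.791 and 21.1 CPM. These were not called (log2 fold changes 4.06 ± 1.85 and 4.08 ± 1.92), and heterografts and self-grafts were not called apart for it at 7 DAG (scion 2.38 ± 1.14, stock 3.35 ± 1.35, adjusted p = 0.2935 and 0.09329).

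Solyc05g051200 on chromosome 5 was called higher at 7 DAG in the heterografted stock. It was at 29.1, 31.0, 17.9 and 44.4 CPM there and at 1.69, 0, 0 and 0.851 CPM in ungrafted stems, without overlap (log2 fold change 5.20 ± 0.96, adjusted p = 0.0003686). In self-grafted stocks it stood between these groups, at 5.00, 3.95 and 19.2 CPM, with the highest of them above the lowest heterografted stock. Heterografted scions held 1.03, 3.68, 4.14, 5.06 and 6.97 CPM (log2 fold change to ungrafted stem 2.37 ± 0.90, adjusted p = 0.08311, not called).

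**Figure D4:**
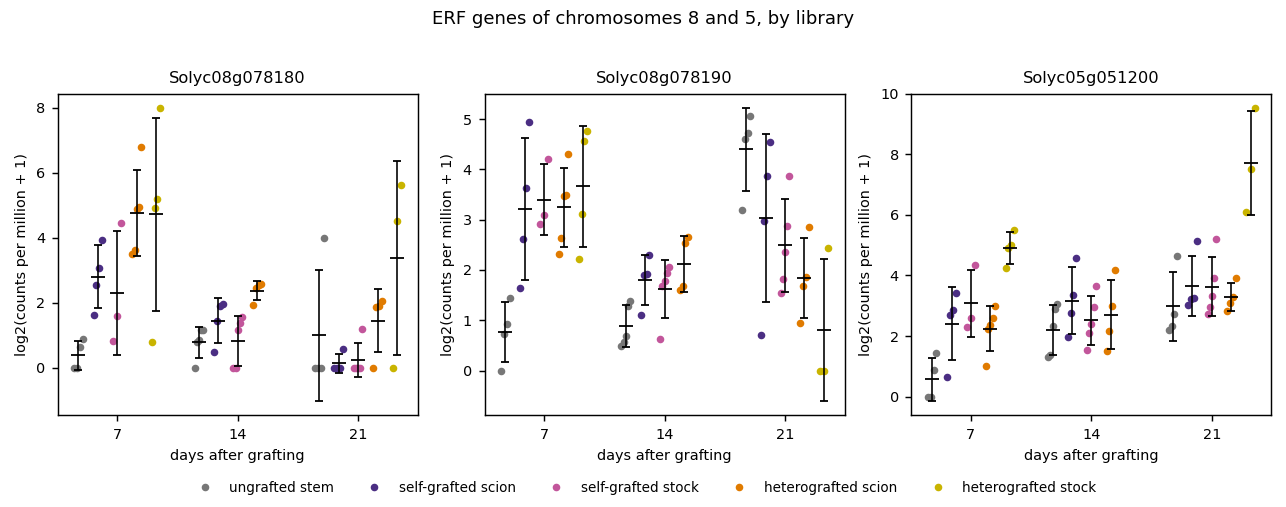
Log2(CPM + 1) (vertical axis) of Solyc08g078180, Solyc08g078190 and Solyc05g051200 in each library at 7, 14 and 21 DAG; points are libraries and bars are mean ± SD, with the heterografted stocks of 14 DAG not drawn. At 7 DAG the ungrafted stems are at or under 1.70 CPM for all 3 genes, and Solyc05g051200 is at 17.9 to 44.4 CPM in heterografted stocks.

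Solyc07g053740 was higher at 7 DAG in both heterografted tissues, at 7.59 to 32.4 CPM in scions and 10.4 to 31.7 CPM in stocks, against 3.40 to 5.65 CPM in ungrafted stems (log2 fold changes 1.93 ± 0.53 and 1.86 ± 0.54, adjusted p = 0.01578 and 0.0122). Self-grafted stocks, at 12.3 to 19.5 CPM, covered the same levels as heterografted stocks. Solyc09g075420 was higher in the heterografted stock, at 26.2 to 65.3 CPM against 0 to 32.7 CPM in ungrafted stems, which overlapped (1.74 ± 0.66, adjusted p = 0.04846). In the self-grafted stock the 2 called genes were Solyc03g093560 (2.51 ± 0.58, adjusted p = 0.02995) and Solyc05g052040 (1.80 ± 0.45, adjusted p = 0.04307). The gene lower in the heterografted scion was Solyc05g052030, at 2.07 to 5.89 CPM where ungrafted stems held 14.5 to 18.7 CPM (-2.40 ± 0.41, adjusted p = 0.0004434).

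After 7 DAG no ERF gene tested was called between a self-graft and ungrafted stem. In edgeR 0 of the 17 were called in the self-grafted scion or stock at 14 or 21 DAG, with 4 and 3 at an unadjusted p under 0.05 at 14 DAG and 3 and 6 at 21 DAG, scion and stock in turn. DESeq2's Wald test called 1 gene in the stock at 21 DAG and 0 in the other 3. Over all genes tested, self-grafted scions of 14 DAG had 2.46% called higher and 0.862% lower, where stocks had 1.29% and 0.304%. The shares at 21 DAG were 0.140% and 0.0164% for the scion, with 0.0657% and 0.0246% for the stock. With so few genes called anywhere, 0 of the 17 is near these shares and says little of the ERF genes in particular.

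In the heterografted scion ERF genes were called against ungrafted stem on both later days. At 14 DAG 1 of the 17 genes was higher and 4 were lower, beside 5.15% and 4.55% of all genes. Solyc08g078190 was the higher one (log2 fold change 1.84 at 2.03 to 5.29 CPM), and the lower ones were Solyc05g052030 (-2.10), Solyc05g052040 (-1.59), Solyc10g009110 (-1.83) and Solyc08g007820, whose 2 counts against 765 gave a pooled ratio 433-fold lower (exact 95% counting interval 119 to 3580). With the DESeq2 Wald test 2 genes were called in place of 5. At 21 DAG 0 were higher and 6 lower, beside 3.88% and 3.56%. Those were the 3 neighbours on chromosome 3 (-2.32, -2.58 and -2.33), Solyc05g052040 (-2.43), Solyc08g078190 (-3.13) and Solyc08g007820, with 3 counts against 127 (pooled ratio 43.9-fold lower, exact 95% counting interval 14.7 to 216). Without ungrafted stem replicate 5 of that day the count was 10.

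The heterografted stock of 21 DAG has to be read beside the state of its libraries. Against the self-grafted stock 8 of the 17 ERF genes were called lower and 2 higher, where 55.4% of all genes were called lower and 4.39% higher. The median log2 fold change was -3.78 for the 17 and -3.67 for all genes tested. Against ungrafted stem 12 were lower and 1 higher, beside 54.9% and 5.35%, with medians of -4.50 and -3.74. In both comparisons most genes of the whole table were lower, so these counts say little of the ERF genes in particular. Solyc03g093550, Solyc09g075420 and Solyc12g005960 had 0 counts in all 3 libraries, which at this depth means at least 6.71-fold, 9.19-fold and 3.44-fold lower than in self-grafted stocks, with the floor set at 3 counts over the group. For Solyc05g052030 the 3 libraries held 2 counts in all, a pooled ratio, without TMM scaling, 43.3-fold lower than in self-grafted stocks (exact 95% counting interval 12.0 to 358).

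A few ERF transcripts stood out upwards in the same libraries. Solyc05g051200 was at 181, 733 and 67.4 CPM in heterografted stocks of 21 DAG, from 41, 24 and 18 counts, and at 35.7, 14.0, 5.69, 9.09 and 6.81 CPM in self-grafted stocks, without overlap (log2 fold change 2.65 ± 0.69, adjusted p = 0.002705). Solyc08g078180 was at 22.1, 0 and 48.7 CPM from 5, 0 and 13 counts, where the 5 self-grafted stocks held 2 counts in all (pooled ratio 150-fold higher, exact 95% counting interval 35.8 to 1329). The pooled ratio has no TMM scaling, and the fitted difference was smaller, at 47.5-fold (log2 fold change 5.57 ± 1.72). That difference was called too (adjusted p = 0.008603), although 1 of the 3 libraries held none. Solyc06g063070, at 1735, 489 and 1389 CPM, was not called against the self-grafted stock (log2 fold change -0.05 ± 0.42).

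Ungrafted stems gave the course of the ERF genes over the days of collection. Plant age and release from the plastic domes cannot be told apart in it. From 7 to 14 DAG 5 of the 17 rose and 0 fell, beside 3.80% and 0.977% of all genes. From 7 to 21 DAG 10 rose and 1 fell, beside 10.4% and 8.84%, with a median log2 fold change of 2.06 for the 17 and 0.13 for all genes tested. The 10 were the 3 neighbours on chromosome 3, Solyc05g051200, Solyc05g052030, Solyc05g052040, Solyc07g053740, Solyc08g078190, Solyc09g075420 and Solyc12g005960, with log2 fold changes from 1.73 to 4.86. Solyc05g052040 rose by 2.77 ± 0.37 and had the lowest adjusted p among them (7.635e-08). The gene that fell was Solyc06g065820, from 36.1, 36.3, 11.8 and 30.6 CPM at 7 DAG to 4.48, 2.15, 5.24 and 4.25 CPM at 21 DAG, without overlap. The count of 5 at 14 DAG was 2 without ungrafted stem replicate 5 of 7 DAG or replicate 3 or 4 of 14 DAG, and 3 without replicate 2 of 7 DAG.

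Among the genes called lower in the heterografted scion at 21 DAG, Solyc10g009110 (1.47 ± 0.43, adjusted p = 0.005308) and Solyc06g063070 (0.61 ± 0.19, adjusted p = 0.009724) passed on p but not on fold in ungrafted stems from 7 to 21 DAG. There Solyc08g007820 did not pass (1.64 ± 1.10, adjusted p = 0.2413), while the others rose. Mean levels of Solyc03g093560 show both courses. In heterografted scions they were 108 ± 54.4 (SD, n = 5), 46.5 ± 10.7 (SD, n = 4) and 31.7 ± 14.2 CPM (SD, n = 4) at 7, 14 and 21 DAG, and in ungrafted stems 16.6 ± 10.2 (SD, n = 4), 53.2 ± 33.6 (SD, n = 5) and 138 ± 34.0 CPM (SD, n = 4).

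Neighbouring genes varied together from library to library. Over the 55 deeper libraries the 5 pairs of neighbours had a median Pearson correlation of 0.85 in log2 CPM and 0.82 after the mean of each group was taken off, where all 136 pairs of the 17 genes had medians of 0.17 and 0.14. After the group means were taken off, the pairs on chromosome 3 were at 0.82, 0.85 and 0.89, so the median of the neighbours is that of this block. These values are descriptions over libraries that share groups and normalization. Whether reads shared between near copies add to them was not tested. The closest pair was Solyc03g093550 and Solyc03g093560 (0.89 on both measures). The pair on chromosome 5, Solyc05g052030 and Solyc05g052040, was alike in level (0.66) but not within groups (0.19), whereas Solyc05g052040 and Solyc10g009110, on different chromosomes, reached 0.82 and 0.69. Solyc08g078190 was nearer to the chromosome 3 gene Solyc03g093550 (0.68 and 0.76) than to its own neighbour Solyc08g078180 (0.49 and 0.50).

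The 24 ERF genes that failed the filter were low in nearly all libraries. Their highest count in any library was under 10 for 6 of them, among which Solyc01g090300, Solyc01g090310, Solyc01g090320, Solyc02g077360 and Solyc08g078170 never exceeded 4 counts. Fitted with no filter on 22574 genes, 14 values of these genes were called over the 16 comparisons, several of them against groups at 0. In the heterografted stock of 7 DAG 5 of the 24 were higher than in ungrafted stem, where 6.06% of all genes were called higher in that fit. Solyc03g005500 had 115 counts there, in 2 of the 4 libraries (14.0 and 41.9 CPM), and 0 in ungrafted stems, so it was at least 26.0-fold higher with a floor of 3 counts over the group. By the same floor Solyc05g052050, the third neighbour on chromosome 5, was at least 11.1-fold higher, Solyc08g007230 at least 10.4-fold and Solyc02g077370 at least 8.18-fold, and Solyc10g006130, with 42 counts against 1, had a pooled ratio of 31.6 (exact 95% counting interval 5.37 to 1278). Solyc02g077370 was also higher in the heterografted scion, with 18 counts against 0 (at least 3.23-fold), the 1 of the 24 called there beside 3.09% of all genes.

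On the later days the same fit called 2 of the 24 higher and 1 lower in the heterografted scion against ungrafted stem at 14 DAG, beside 4.17% and 2.72% of all genes. At 21 DAG it called 1 higher and 1 lower between the scions (1.79% and 2.56%), 1 higher and 1 lower between the stocks (4.43% and 33.4%) and 1 higher in the heterografted stock against ungrafted stem (4.76%). At 14 DAG the heterografted scion was higher than ungrafted stem in Solyc03g005520, with 20 counts against 0 (at least 5.77-fold), and lower in Solyc08g007830, the neighbour of Solyc08g007820, with 0 counts against 54 (at least 18.9-fold). At 21 DAG Solyc08g007230 was lower in the heterografted than in the self-grafted scion, with 1 count against 25 (pooled ratio 26.8, exact 95% counting interval 4.39 to 1100), and Solyc05g052050 was called lower in the heterografted stock, though its counting interval of the pooled ratio against the self-grafted stock, 0.711 to 22.2, included 1.

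The most marked of them was Solyc04g014530. It was at 260, 275 and 127 CPM in the heterografted stocks of 21 DAG, from 59, 9 and 34 counts, and at 1.28, 1.17, 1.90, 1.01 and 2.62 CPM in self-grafted stocks, with log2 fold changes of 5.45 ± 0.50 against self-grafted stock (adjusted p = 3.324e-08) and 5.13 ± 0.54 against ungrafted stem (adjusted p = 1.658e-07). All 3 libraries were far above every library of any other group. They are the shallow stock libraries of the day for which the study reports the low alignment rates. In heterografted scions of 21 DAG it was at 9.40, 4.98, 7.5 and 6.99 CPM against 3.42, 0.642, 1.76 and 1.51 CPM in self-grafted scions. Of the listed genes it was the only one called higher there with or without the filter (1.77 ± 0.50, adjusted p = 0.03924). In heterografted scions of 14 DAG it was higher than in ungrafted stem (2.59 ± 0.70, adjusted p = 0.018).

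Genes around the ERF family were counted from 2 lists assembled from general knowledge, of ethylene synthesis and signalling (27 listed, 20 tested) and of steroidal glycoalkaloid synthesis (8 listed, 8 tested), a pathway in which ERF proteins are known regulators in tomato. The identity of these IDs was not checked against an annotation, so the counts hold for the IDs listed. The 8 glycoalkaloid IDs were listed for genes that the study itself reports as upregulated in incompatible tissue, especially in the scion. Their higher calls in the scion were therefore foreseen and are no independent support. In the heterografted against the self-grafted scion the ethylene list had 0 calls at 7 and at 21 DAG and 2 higher at 14 DAG, Solyc07g049530 (log2 fold change 3.40 ± 1.05, adjusted p = 0.03222) and Solyc02g036350 (1.74 ± 0.61, adjusted p = 0.04674). Over all genes tested 1.07%, 2.19% and 3.53% were called higher there at 7, 14 and 21 DAG, and 1.30%, 3.44% and 4.60% lower. In the stock of 7 DAG the same 2 were higher (4.71 ± 1.29 and 2.71 ± 0.71, adjusted p = 0.01433 and 0.0105) and Solyc02g081190 was lower (-1.76 ± 0.59, adjusted p = 0.04243), beside 2.48% of all genes higher and 7.99% lower. Of the 8 IDs of the glycoalkaloid list, 5, 6 and 7 were higher in the heterografted than in the self-grafted scion at 7, 14 and 21 DAG and 0 lower, with median log2 fold changes of 1.84, 2.87 and 4.85, while those of all genes were 0.06, 0.04 and 0.03. In the stock of 7 DAG 7 of the 8 were lower (median -4.28), beside 7.99% of all genes (median -0.07). Neither self-graft was called against ungrafted stem in any of the 8 on any day, where at most 2.46% of all genes were called higher and 0.862% lower.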

How the data were processed

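Stem pieces of tomato scions, stocks and ungrafted stems were profiled by 3′ RNA sequencing. The authors trimmed the reads, aligned them with STAR 2.7.10b to tomato gene models of ITAG4, sorted them with SAMtools 1.18 and made gene counts with StringTie, and the deposited values are these raw counts per gene, with no normalization. FastQC 0.12.1 was used for quality checks. Use of molecular identifiers was not stated in the sources used here, so intervals cover counting error only. Libraries held 900 to 3136541 counts.

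Genes with a mean count under 10 or 0 counts in 75% or more of the 61 tomato libraries were left out, as in the study's methods, which left 12176. Each day was fitted with its 5 groups in edgeR 4.0.16 (R 4.3.3; quasi-likelihood test, TMM). A gene was called at a Benjamini-Hochberg adjusted p under 0.05 and a log2 fold change over 1.5. Changes between days were fitted over 55 libraries. Alternatives were library totals, DESeq2 1.42.0 size factors, its Wald test, no filter, a replicate block, only the groups compared, and each library left out in turn. Data were simulated for the heterografted scion against ungrafted stem at 7 DAG, with changes made only in genes at or above the median ungrafted level. Of genes changed by a log2 fold of 2 or 3, 88% to 92% were recovered, and 4 of 11976 unchanged genes were called. Recovery of genes below that median was not simulated, so these shares do not hold for ERF genes with few counts. No 2 libraries of a group held the same values.

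The genes and both pathway lists were chosen with earlier results of these data known. Library values are given for genes called between heterograft and self-graft in the scion on any day or in the stock at 7 DAG (9 genes), and for others where they were called, chosen after their values were seen. Grouping by protein motifs and a check of stem markers were not made, since no tomato annotation or sequence was used here. Same-numbered replicates did not pair the samples in the 16 comparisons, all of them between different plants. Pairing of self-grafted scions with self-grafted stocks was not checked. The pepper count table was not used.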

Additional observations from a re-analysis of the deposited data

Results flagged for a closer look

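The 9 genes given in full were checked in groups of 4 or 5 libraries. In 10 of 108 groups tested (9.26%) a library stood apart from the rest of its group. The cut-off would give about 1 in 20 for independent, normally distributed values. CPM of genes read from the same libraries are not such values, so no excess over chance is read from this share. Self-grafted scion replicate 1 of 14 DAG was the highest for 3 genes: 59.2 CPM for Solyc05g052030 (others 36.2 to 39.9), 117 CPM for Solyc10g009110 (others 40.8 to 53.1) and 78.3 CPM for Solyc08g007820 (others 4.79 to 16.0). Solyc08g007820 also had a single high library in self-grafted stocks of 14 DAG (replicate 1, 157 CPM, others 0 to 27.1) and in ungrafted stems of 7 DAG (replicate 1, 18.1 CPM, others 0 to 1.82). Solyc03g093540 was lowest in heterografted scion replicate 4 of 21 DAG (2.80 CPM, others 8.30 to 8.82) and highest in self-grafted stock replicate 4 of 21 DAG (46.0 CPM, others 13.3 to 22). Solyc03g093550 was highest in heterografted scion replicate 4 of 14 DAG (19.8 CPM, others 10.9 to 12.1), Solyc05g052040 lowest in self-grafted scion replicate 3 of 21 DAG (66.7 CPM, others 126 to 135), and Solyc10g009110 highest in ungrafted stem replicate 2 of 21 DAG (185 CPM, others 57.3 to 72.8). What set these libraries apart was not tested.

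For 7 genes the log2 difference between heterografted and self-grafted scion was lower at 21 than at 7 DAG by a test of the difference itself (edgeR interaction, adjusted p under 0.05). The changes were -2.77 for Solyc03g093540, -2.33 for Solyc03g093550, -2.35 for Solyc03g093560, -2.22 for Solyc05g052040, -1.26 for Solyc06g063070, -2.29 for Solyc10g009110 and -1.63 for Solyc12g005960. Without 1 library at a time, 5 to 7 genes passed.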

How the results depend on the processing

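The 15 called values between heterograft and self-graft kept their direction in 106 alternative values, 98 of them past the thresholds and 8 not, and in 117 values without 1 library, 103 past and 14 not. Counts moved by over 1.5 times as follows. The self-grafted scion against ungrafted stem at 7 DAG had 2 calls, and 4 with library totals, 4 with DESeq2 size factors, 4 with the Wald test, 1 with no filter, 1 with the replicate block and 0 on only the groups compared. The self-grafted stock at 7 DAG had 2, and 1 with no filter, 0 with the block, 0 on only the groups compared and 6 by Wald. At 14 DAG the heterografted scion had 5 against ungrafted stem and 2 by Wald, and 4 against self-grafted scion, 1 with size factors and 1 by Wald. At 21 DAG the self-grafted stock had 0 and 1 by Wald. The cause was not tested for these, except at 14 DAG: DESeq2 size factors moved the calls over all genes from 267 higher and 419 lower to 591 and 254 in the scions, and computed without the 3 shallow heterografted stocks, a setting chosen after seeing the data, gave 268 and 415 and again 4 ERF genes. Without the heterografted stocks of 21 DAG, also chosen after seeing the data, 8 ERF genes were lower in the heterografted scion, as with them.

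Uncalled values that changed sign were Solyc08g007820 in the scion at 7 DAG with the replicate block (-0.21), Solyc03g093550 at 14 DAG with size factors (0.31) and Wald (0.30), and Solyc03g093540 at 14 DAG with both (0.14 and 0.14). Replicate numbers did not pair the samples in the comparisons made, all between different plants. The correlations of same-numbered deviations in 57 pairs ran from -0.23 to 0.24, and in 0 of 16 comparisons was every pair over 0.1. Self-grafted scions and self-grafted stocks were not checked against each other. With the block, Solyc03g093560 in the stock at 7 DAG was at -1.62 (adjusted p = 0.0543).

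Without 1 library at a time the called counts ran at 7 DAG from 1 to 4 (self-grafted scion), 0 to 2 (self-grafted stock), 4 to 7 (heterografted scion) and 4 to 8 (heterografted stock) against ungrafted stem, 0 to 0 (scions) and 2 to 3 (stocks) between heterograft and self-graft, and 0 to 1 for scion minus stock. At 14 DAG they ran from 0 to 0 in both self-grafts and 4 to 5 in the heterografted scion against ungrafted stem, and 1 to 4 between scions. At 21 DAG they were 0 to 0, 0 to 1, 5 to 10 and 10 to 13 against ungrafted stem (self-grafted scion and stock, heterografted scion and stock), 8 to 9 between scions and 10 to 11 between stocks. Between days they were 5 to 7 for the scion difference, 2 to 6 for ungrafted stem at 14 against 7 DAG and 11 to 13 at 21 against 7 DAG. Uncalled values with both signs ranged at 7 DAG in the scion from -0.061 to 1.59 (Solyc08g007820), -0.50 to 0.46 (Solyc03g093560) and -0.60 to 0.45 (Solyc03g093540), in the stock from -0.56 to 0.048 (Solyc05g052040), at 14 DAG from -0.26 to 0.044 (Solyc03g093550), -0.061 to 0.20 (Solyc03g093560) and -0.10 to 0.44 (Solyc06g065820), and at 21 DAG from -0.12 to 0.69 (Solyc06g065820).

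Depth limits the heterografted stocks: those of 14 DAG gave no test, and those of 21 DAG cannot show a fall below the floor of 3 counts.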
